A study of Rattus norvegicus with 12 samples.

Results

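The mRNAs of the natriuretic peptide system were followed in the left ventricle of 12 male Sprague-Dawley rats. Its 9 members were chosen by name: the peptide genes Nppa, Nppb and Nppc, the receptor genes Npr1, Npr2 and Npr3, and the protease genes Corin, Furin and Mme. They are 9 of the 34700 genes in the table, and 8 of the 9 passed the filter on low counts. Each of 4 groups held 3 rats. HF rats had the left anterior descending coronary artery tied at 8 weeks of age and stayed sedentary. In Sham rats the thread was passed around the artery without a knot. HFE rats were tied like the HF rats and then exercised by treadmill running, in sessions of 60 min on 5 days of each week, for 8 weeks from week 4 after surgery. BAIBA rats were tied as well and received β-aminoisobutyric acid, a small molecule released by working muscle, by gavage at 75 mg/kg per day over the same 8 weeks, while water was given to controls. Hearts were taken 12 weeks after surgery. All tissue was from the anterior wall of the left ventricle, and the site around the infarct is named for BAIBA and HF rats, but not for HFE or Sham rats. In comparisons of HF or BAIBA with Sham or HFE, the site sampled and the group therefore cannot be told apart.

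Atrial natriuretic peptide (ANP, from Nppa) and brain natriuretic peptide (BNP, from Nppb) are hormones of heart muscle that promote sodium excretion and relax vessels, and ventricular muscle under load is known to make more of both. The precursors are cut by the proteases corin and furin. ANP and BNP then act through NPR-A (Npr1), a receptor that makes cyclic GMP, whereas C-type natriuretic peptide (CNP, from Nppc) acts through NPR-B (Npr2). NPR-C (Npr3) takes all of these peptides up and clears them, and neprilysin (Mme) degrades them.

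Each library held 14812541 to 19732588 reads assigned to genes. Read counts scaled to a common library size (CPM), with the trimmed mean of M-values (TMM) as the scaling, are used below to compare rats. FPKM values, which are also divided by gene length, are used to compare genes. The 6 ventricular muscle markers summed to 11886 to 12235 CPM in Sham, 11199 to 12202 in HF, 12041 to 14498 in HFE and 11518 to 12087 in BAIBA rats. Without overlap between rats, 3 of the 6 were higher in HFE than in HF (14.3% of all genes, either direction). In HFE against Sham 2 were higher (17.8%), in BAIBA against HFE 2 were lower (15.6%) and in BAIBA against HF 1 was higher (11.5%). HF and BAIBA, each against Sham, gave 0. On the FPKM scale the mean level over the 12 rats was highest for Nppb, at 240, and next highest for Nppa, at 196. It was far lower for Furin (17.1), Corin (13.7), Npr2 (11.7) and Npr1 (11.2), and lower again for Npr3 (4.19). Mme, at 0.456, and Nppc, at 0.157, were the lowest. In whole tissue, fewer cells of a type and less RNA per cell cannot be told apart. The p-values of edgeR and DESeq2 set a difference between groups against the spread between the rats of a group. Those of relations between genes come from permutation of rats within groups.

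HFE rat 3 stood apart from the other rats in immediate early genes, which cells switch on within minutes of a stimulus. It had 269 CPM of Egr1, 51.7 of Fos and 269 of Jun, and the other HFE rats had 27.2 and 31.2 of Egr1, 6.40 and 4.58 of Fos and 80.0 and 95.5 of Jun. HF rat 1 had the next highest Egr1, at 91.6 CPM. HFE rat 3 also had the highest Nppb and Npr1 and the lowest Npr3 of all 12 rats, so the values of these genes without it are given beside their results. Its part in them was not tested further.

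Across the 6 comparisons, 3 genes separated the groups most often. Npr3 was lower in every failing group than in Sham and lower again in both treated groups than in HF. Nppb was high in HF and HFE rats and low in Sham and BAIBA rats. Mme was high in HF and BAIBA rats and low in Sham and HFE rats. None of these differences passed the test that was set for them, edgeR's quasi-likelihood test with an adjusted p under 0.05 over all genes and at least a 2-fold change. The comparisons share groups and so are not independent of each other.

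In HF against Sham, 0 of the 8 tested members passed (0% of all genes), and DESeq2 called 0 (0.154% of all genes). The groups did not overlap for 5 members, against 11.7% of all genes, and 4 had an unadjusted edgeR p under 0.05 (6.0% of all genes). In HFE against HF, 0 passed in edgeR (0%) and 0 in DESeq2 (0.155%). The groups did not overlap for 2 of the 8 tested members, against 14.3% of all genes, and both had an unadjusted edgeR p under 0.05 (7.62% of all genes). In BAIBA against HF, 0 passed in edgeR (0%) and 0 in DESeq2 (0.181%). The groups did not overlap for 2 members, against 11.5% of all genes, and both had an unadjusted p under 0.05 (5.55%).

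In HFE against Sham, 0 passed in edgeR (0%), 5 had an unadjusted p under 0.05 (11.2%), and DESeq2 called Npr3 and Corin (2 of 8, against 0.467% of all genes). The groups did not overlap for 5 of the 8 tested members, against 17.8% of all genes. In BAIBA against Sham, 0 members passed in edgeR (0.0402% of all genes), 3 had an unadjusted p under 0.05 (7.41%), and DESeq2 called Npr3 (0.425% of all genes). The groups did not overlap for 3 members, against 12.7%. In BAIBA against HFE, 0 members passed in edgeR (0.0808% of all genes), 2 had an unadjusted p under 0.05 (9.57%), and DESeq2 called Nppb (1.07% of all genes). The groups did not overlap for 3 members, against 15.6%. When all 4 groups were tested together, edgeR called 0 members (0% of all genes) with 5 at an unadjusted p under 0.05 (9.71% of all genes), and DESeq2 called Npr3, Corin, Nppb and Mme (1.97% of all genes). With 3 rats against 3, an exact two-sided permutation test cannot give a p below 0.1, which every pair of groups without overlap reached.

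**Figure D1:**
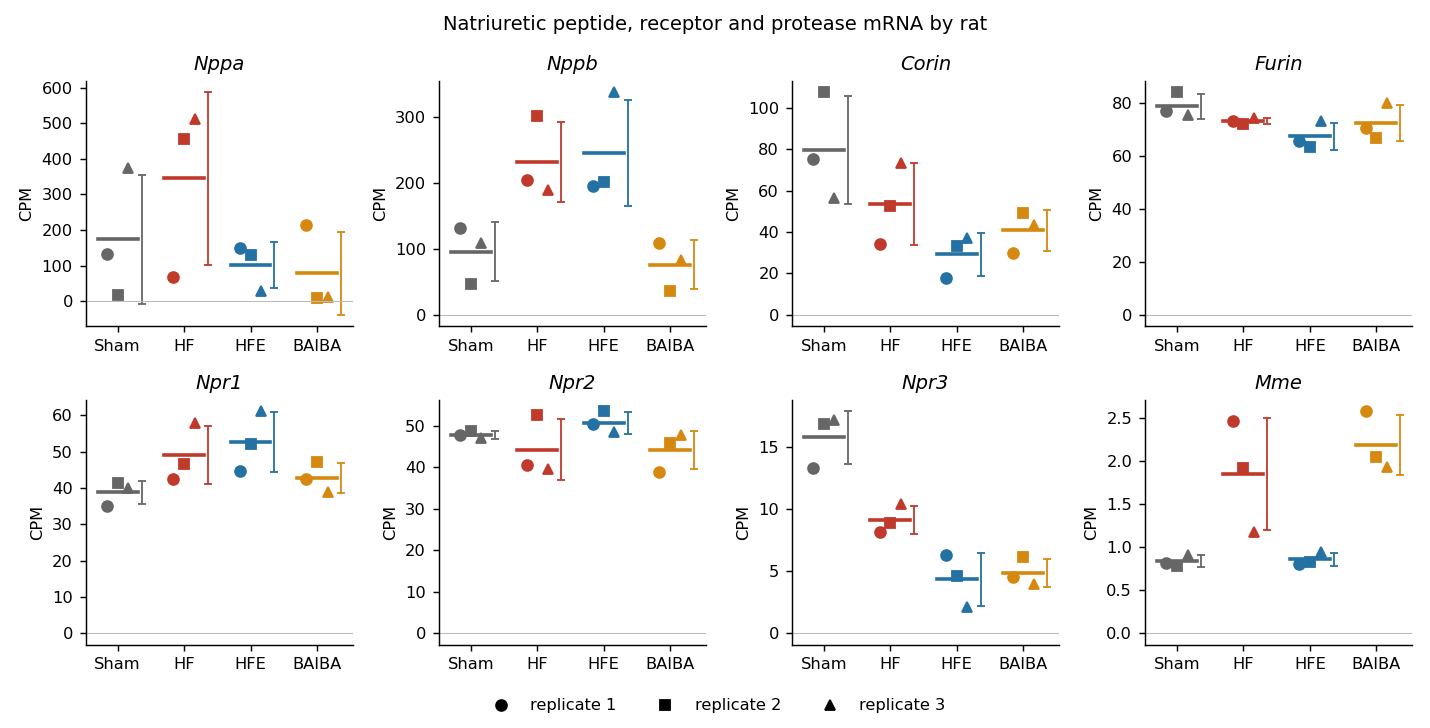
CPM of the 8 members that passed the filter, in each of the 12 rats. Points are rats, horizontal bars are group means, and the error bars at their right are SD (n = 3). Npr3 steps down from Sham to HF to both treated groups, Nppb is high in HF and HFE, Mme is high in HF and BAIBA, and Nppa spreads widely inside each group.

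**Figure D2:**
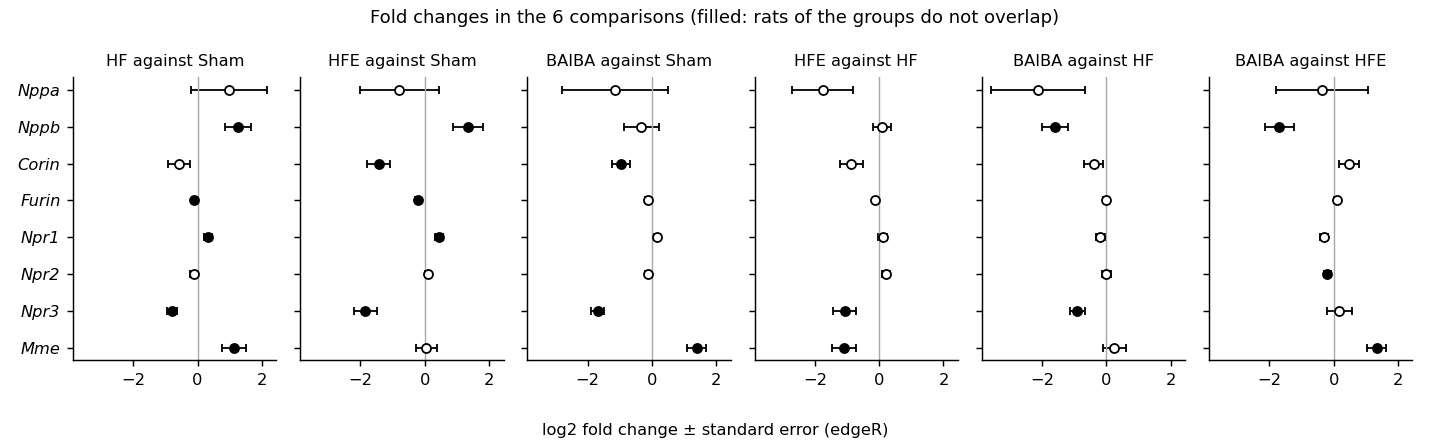
Log2 fold changes from edgeR (x axis, with standard errors) of the same 8 genes in the 6 comparisons, with filled points where the rats of the 2 groups do not overlap. Npr3 has 5 filled points, all below 0, and Nppb and Mme have 4 each. Nppa has none and has the widest errors.

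The peptide genes were taken first. Nppa and Nppb are neighbours on the same chromosome, with no gene between them in RefSeq. The sequence upstream of each is shown because the cardiac factors known to bind there, GATA4, NKX2-5, TEAD1 and SRF, are also measured below. The sequences are from RefSeq on GRCr8, plus strand, 5′ to 3′: 250 bases before Nppa at chr5:163711934-163712183 and 197 bases before the first annotated base of Nppb at chr5:163699758-163699954. Capitals mark matches to GATA, to AAGTG (the core bound by NKX2-5), to CATTCC (the core bound by TEAD factors) and to TATAAA, each searched on both strands.
Nppa: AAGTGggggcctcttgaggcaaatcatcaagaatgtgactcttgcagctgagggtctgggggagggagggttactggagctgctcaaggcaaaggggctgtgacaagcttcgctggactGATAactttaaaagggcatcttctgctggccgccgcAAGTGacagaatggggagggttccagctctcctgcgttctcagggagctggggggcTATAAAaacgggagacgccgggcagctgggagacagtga
Nppb: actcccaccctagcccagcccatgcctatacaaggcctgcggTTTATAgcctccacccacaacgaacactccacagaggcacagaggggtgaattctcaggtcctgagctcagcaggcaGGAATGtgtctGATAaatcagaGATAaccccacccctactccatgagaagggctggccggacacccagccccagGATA
Nppa held 1 GATA, 2 AAGTG and 1 TATAAA match. Nppb held 3 GATA matches, 1 CATTCC match and 1 TATAAA match, the last on the opposite strand. The CArG box, the site of SRF, was searched only as CCWWWWWWGG, where W is A or T, and had 0 exact matches in either. Sites that depart from this pattern by a base were not searched, so a site of SRF is not excluded. Among 33469 rat promoters in 250-base windows, GATA was present in 55.9%, AAGTG in 40.6%, TATAAA in 12.9%, CATTCC in 12.1% and the CArG box in 1.5%, so the short motifs are common and a match is only a description.

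Nppa had the most variable mRNA of the system, with a 49.3-fold range over the 12 rats. Its CPM in Sham rats 1 to 3 was 133, 16.9 and 373. In HF rats it was 67.4, 456 and 511. In HFE rats it was 148, 129 and 27.4, and in BAIBA rats it was 213, 10.4 and 11.6. The highest levels were in HF rats 2 and 3 and the lowest in BAIBA rats 2 and 3, but in HF, HFE and BAIBA a single rat lay far from the other 2, and all groups overlapped. The log2 fold change was 0.98 ± 1.19 (SE) in HF against Sham, with an edgeR adjusted p of 0.920. It was -1.76 ± 0.94 in HFE against HF (edgeR adjusted p = 0.689) and -2.13 ± 1.45 in BAIBA against HF (edgeR adjusted p = 0.862). BAIBA against Sham gave -1.15 ± 1.64 and HFE against Sham gave -0.79 ± 1.23, and without Sham rat 3 both values turned above 0 (0.069 and 0.43). Leaving out 1 rat moved the others as well. HF against Sham ran from 0.44 (without Sham rat 2) to 2.20 (without Sham rat 3), HFE against HF from -2.25 (without HF rat 1) to -1.31 (without HFE rat 3), and BAIBA against HF from -4.96 (without BAIBA rat 1) to -1.62 (without BAIBA rat 2).

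ANP mRNA is far more abundant in atrial than in ventricular muscle, so atrial genes were read beside Nppa. Myl7, the atrial myosin light chain, had 27.5, 11.4 and 40.3 CPM in Sham rats, 0.743, 2.35 and 19.8 in HF rats, 32.5, 1.18 and 0.442 in HFE rats and 0.674, 0.384 and 0.301 in BAIBA rats. It was thus above 10 CPM in all 3 Sham rats, in HF rat 3 and in HFE rat 1. Nppa did not follow it in every rat: HF rat 2 had 456 CPM of Nppa with little Myl7, BAIBA rat 1 had 213 with less, and Sham rat 2 had 16.9 with 11.4 CPM of Myl7. The summed level of the 9 atrial markers was 168 to 203 CPM in Sham, 112 to 150 in HF, 113 to 167 in HFE and 113 to 138 in BAIBA rats. Most of that sum was the channel genes Kcnk3 and Kcnj3, and no marker was at 0 in all rats. As deviations from group means on the log2 scale, Nppa and Myl7 gave r = 0.58 over 12 rats (exact permutation within groups, p = 0.0262, adjusted over 8 relations 0.154) and rho = 0.75 (exact permutation p = 0.00617, adjusted 0.0494). Without the 2 rats farthest from the median of Nppa, r was 0.60. Nppa with Nppb gave r = 0.52 (exact permutation p = 0.268, adjusted 0.714) and rho = 0.34 (exact permutation p = 0.383, adjusted 0.859). The part of atrial tissue in the Nppa values was not tested.

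Nppb, in contrast, separated the groups. Its CPM was 132, 46.6 and 109 in Sham rats and 205, 302 and 189 in HF rats. HFE rats had 196, 202 and 338, and BAIBA rats had 109, 36.1 and 83.0. All 6 HF and HFE rats were above all 6 Sham and BAIBA rats, and within each of these pairs of groups the rats overlapped. The fitted level was 2.40-fold higher in HF than in Sham (log2 1.26 ± 0.41 SE, edgeR adjusted p = 0.805). In BAIBA rats it was 3.04-fold lower than in HF (log2 -1.61 ± 0.41, edgeR adjusted p = 0.851) and 3.22-fold lower than in HFE (log2 -1.69 ± 0.45, edgeR adjusted p = 0.302, DESeq2 adjusted p = 0.0346). HFE was 2.56-fold higher than Sham (log2 1.35 ± 0.47, edgeR adjusted p = 0.401). HFE against HF gave log2 0.08 ± 0.27 and BAIBA against Sham gave -0.33 ± 0.54. Without HFE rat 3, the log2 fold change of Nppb was 1.05 in HFE against Sham, -1.39 in BAIBA against HFE and -0.22 in HFE against HF.

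Myh7, the slow myosin heavy chain that is another load marker of the ventricle, had 7474, 7755 and 7935 CPM in Sham rats, 11746, 8626 and 17555 in HF rats, 13936, 16625 and 12794 in HFE rats and 3114, 3591 and 3546 in BAIBA rats. The group means of Nppb and Myh7 thus had the same order, with HFE highest and BAIBA lowest. Inside the groups they did not go together: r was -0.43 over 12 rats (exact permutation within groups, p = 0.0386, adjusted 0.154) and rho was -0.67 (exact permutation p = 0.0224, adjusted 0.0895). Without the 2 rats farthest from the median of Nppb, r was -0.59. Nppb with Myl7 gave r = -0.08 (exact permutation p = 0.778, adjusted 0.914). The ratio of Nppb to Nppa on the FPKM scale ran from 0.386 in Sham rat 3 to 16.3 in HFE rat 3.

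**Figure D3:**
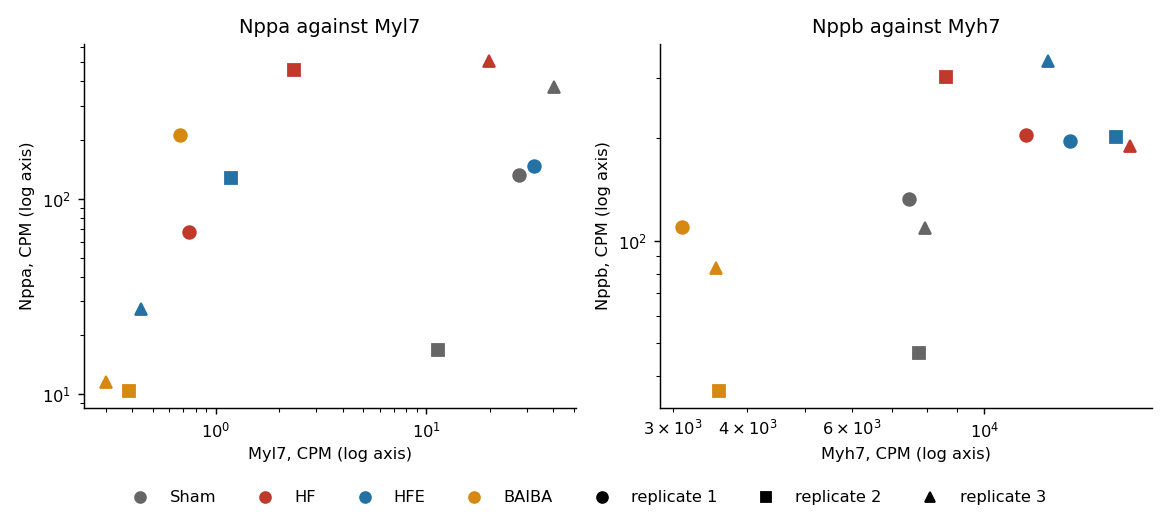
Left, Nppa against the atrial light chain Myl7. Right, Nppb against the slow heavy chain Myh7. All axes are CPM on log scales and each point is a rat. HF rat 2 and BAIBA rat 1 have high Nppa with Myl7 under 3 CPM, and the 3 BAIBA rats form a separate group at low Myh7.

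Nppc, the CNP gene, which endothelium makes, was barely detected. Its counts were 2, 0 and 2 in Sham rats, 2, 3 and 1 in HF rats, 3, 3 and 6 in HFE rats, and 1, 4 and 4 in BAIBA rats. On the CPM scale the HFE rats, at 0.200 to 0.379, were above all HF rats (at most 0.185) and all Sham rats (at most 0.131). These are 0 to 6 reads a library, below the filter, so Nppc was not tested and no fold is given.

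The processing genes came next. Corin, the membrane protease that cuts pro-ANP, had 75.1, 108 and 56.3 CPM in Sham rats. It had 34.4, 52.8 and 73.5 in HF rats, 17.6, 33.3 and 37.0 in HFE rats and 29.9, 49.2 and 43.4 in BAIBA rats. All 3 HFE and all 3 BAIBA rats lay below the lowest Sham rat, while HF rats overlapped every other group. HFE was 2.70-fold lower than Sham (log2 -1.43 ± 0.36, edgeR adjusted p = 0.303, DESeq2 adjusted p = 0.000136). BAIBA was 1.94-fold lower than Sham (log2 -0.96 ± 0.27, edgeR adjusted p = 0.560). DESeq2 gave an adjusted p of 0.0200 there, with a fold under the limit. HF against Sham gave log2 -0.58 ± 0.33, HFE against HF gave -0.86 ± 0.37, BAIBA against HF gave -0.39 ± 0.30, and BAIBA against HFE gave 0.48 ± 0.30.

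Furin, a protease of the Golgi that cuts pro-BNP and many other precursors, was among the steadiest members, at 63.3 to 84.0 CPM in all rats. It had 76.7, 84.0 and 75.2 CPM in Sham rats and 73.2, 72.1 and 74.4 in HF rats. Its HF rats lay below the Sham rats by a log2 fold change of only -0.11 ± 0.08 (edgeR adjusted p = 0.845). HFE rats, at 65.6, 63.3 and 73.1, were also below Sham, by -0.22 ± 0.08 (edgeR adjusted p = 0.395). BAIBA rats, at 70.5, 66.7 and 79.8, overlapped all other groups. The ratio of Corin to Furin on the FPKM scale was 1.15 ± 0.306 in Sham, 0.840 ± 0.298 in HF, 0.498 ± 0.165 in HFE and 0.654 ± 0.181 in BAIBA rats (SD, n = 3). Every HFE and BAIBA rat was below every Sham rat in this ratio.

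Among the receptors, the guanylyl cyclases differed little. Npr1 had 35.2, 41.3 and 40.1 CPM in Sham rats, 42.6, 46.7 and 58.0 in HF rats, 44.7, 52.1 and 61.3 in HFE rats and 42.5, 47.1 and 38.8 in BAIBA rats. All HF and HFE rats lay above the Sham rats, and BAIBA rats overlapped every group. The log2 fold change was 0.33 ± 0.13 in HF against Sham (edgeR adjusted p = 0.805) and 0.45 ± 0.12 in HFE against Sham (edgeR adjusted p = 0.298), which is 1.36-fold. Without HFE rat 3 the latter was 0.33. BAIBA against Sham gave 0.15 ± 0.11. Npr2 stayed between 39.0 and 53.7 CPM in all 12 rats. HFE rats, at 50.4, 53.7 and 48.4, lay above BAIBA rats, at 39.0, 45.9 and 47.9, with a log2 fold change of -0.20 ± 0.11 in BAIBA against HFE (edgeR adjusted p = 0.625), and no other pair of groups separated.

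Npr3, the clearance receptor, had the clearest order of all members. It had 13.3, 16.8 and 17.2 CPM in Sham rats and 8.12, 8.89 and 10.4 in HF rats. HFE rats had 6.26, 4.65 and 2.08, and BAIBA rats had 4.55, 6.15 and 3.97. Every Sham rat was above every HF rat and every HF rat was above all treated rats, while HFE and BAIBA overlapped. The fitted level was 1.73-fold lower in HF than in Sham (log2 -0.79 ± 0.15, edgeR adjusted p = 0.709, DESeq2 adjusted p = 0.0476 with a fold under the limit). It was 2.10-fold lower in HFE than in HF (log2 -1.07 ± 0.37, edgeR adjusted p = 0.627) and 1.87-fold lower in BAIBA than in HF (log2 -0.90 ± 0.22, edgeR adjusted p = 0.851).

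Against Sham, Npr3 in BAIBA rats was 3.21-fold lower (log2 -1.68 ± 0.20), with an edgeR adjusted p of 0.0513, just above the threshold, and a DESeq2 adjusted p of 1.06e-08. Without BAIBA rat 2, the highest of that group, the edgeR adjusted p was 0.0255. In HFE rats it was 3.62-fold lower than in Sham (log2 -1.86 ± 0.36, edgeR adjusted p = 0.198, DESeq2 adjusted p = 2.05e-05). BAIBA against HFE gave log2 0.18 ± 0.39. Without HFE rat 3, Npr3 gave log2 -1.52 in HFE against Sham, -0.74 in HFE against HF and -0.16 in BAIBA against HFE. HFE rat 3, the lowest, had 33 reads of Npr3, and the highest Sham rat had 263.

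The ratio of the signalling to the clearance receptor on the FPKM scale spread widely. It was 1.33, 1.23 and 1.17 in Sham rats and 2.63, 2.64 and 2.81 in HF rats. It was 3.58, 5.63 and 14.8 in HFE rats and 4.69, 3.85 and 4.91 in BAIBA rats. No Sham rat overlapped an HF rat, and no HF rat overlapped a treated rat. Npr3 is made by endocardium among other cells, and the summed level of 4 endocardial markers overlapped between groups, at 48.5 to 72.7 CPM in Sham, 37.8 to 53.6 in HF, 34.3 to 85.4 in HFE and 51.2 to 58.3 in BAIBA rats. The summed level of 6 fibroblast markers was 1315 to 1425, 999 to 1475, 976 to 1325 and 1256 to 1814 CPM in the same order, and single markers did separate groups. In HF against Sham, 3 of the 6 were lower with no overlap, each with an unadjusted edgeR p under 0.05: Col1a1 (104 to 115 against 140 to 177 CPM), Col3a1 (378 to 510 against 528 to 633) and Tcf21 (6.85 to 8.19 against 8.69 to 14.6). Of all genes there, 11.7% did not overlap in either direction, and 4.99% also had an unadjusted edgeR p under 0.05. In HFE against Sham, Pdgfra (30.8 to 56.1 against 65.1 to 70.7 CPM) and Col3a1 (376 to 494) were lower with no overlap (17.8% of all genes, either direction). In BAIBA against Sham, 0 of the 6 were lower with no overlap, and Dcn was higher (12.7% of all genes, either direction). The median log2 fold change of the 6 was -0.49 in HF, -0.45 in HFE and 0.03 in BAIBA against Sham. In HFE against HF, Col1a1 alone separated, and it was higher (124 to 144 against 104 to 115 CPM, 14.3% of all genes, either direction). In BAIBA against HF 0 of the 6 separated (11.5%). The median of the 6 was -0.16 in HFE and 0.47 in BAIBA against HF. The part of fibroblasts in the Npr3 values was not tested.

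**Figure D4:**
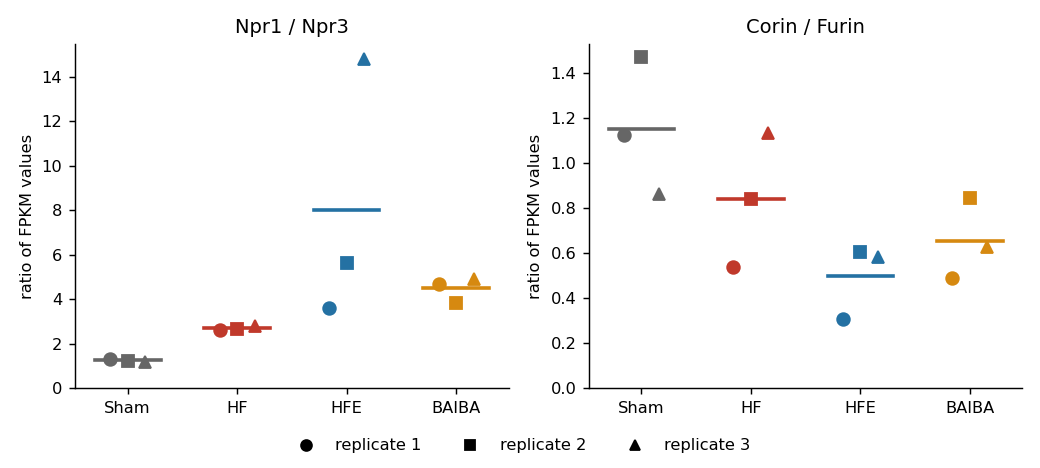
Ratio of FPKM values of Npr1 to Npr3 (left) and of Corin to Furin (right) in each rat. Points are rats and bars are group means (n = 3). The Npr1 to Npr3 ratio is near 1.2 in Sham and above 3.5 in all treated rats, and HFE rat 3 stands highest at 14.8.

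Mme, the gene of the peptide-degrading enzyme neprilysin, was rare, with 12 to 46 reads a library. The counts were 14, 12 and 14 in Sham rats and 43, 31 and 22 in HF rats. They were 12, 12 and 15 in HFE rats and 46, 32 and 32 in BAIBA rats. All HF and BAIBA rats were above all Sham and HFE rats. The site around the infarct is named for the same groups, HF and BAIBA, so group and site cannot be told apart here. On the CPM scale the means were 0.835 ± 0.0698 in Sham, 1.85 ± 0.646 in HF, 0.859 ± 0.0769 in HFE and 2.19 ± 0.349 in BAIBA rats (SD, n = 3). The fitted level was 2.19-fold higher in HF than in Sham (log2 1.13 ± 0.37, edgeR adjusted p = 0.805) and 2.13-fold lower in HFE than in HF (log2 -1.09 ± 0.38, edgeR adjusted p = 0.627). BAIBA was 2.62-fold higher than Sham (log2 1.39 ± 0.31, edgeR adjusted p = 0.350) and 2.53-fold higher than HFE (log2 1.34 ± 0.31, edgeR adjusted p = 0.188).

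Genes of fat and of the heart's outer lining varied between rats, within groups as well, and were read beside Mme. The sum of 4 adipocyte markers was 23.3 CPM in HF rat 1 and 16.6 in BAIBA rat 3, and 0.195 to 6.99 in the others. The sum of 4 epicardial and mesothelial markers was 73.4 CPM in BAIBA rat 1 and 39.8 in BAIBA rat 3, and 18.1 to 24.1 in the others. Wt1, at 14.5 to 23.8 CPM in all rats, made up most of the sum in those others. The rest of the list, Msln, Upk3b and Lrrn4, had 5.32, 2.11 and 2.23 CPM in HF rat 1. None of them was above 0.106 CPM in HF rats 2 and 3. In HF rats 1 to 3, Mme was 2.46, 1.91 and 1.17 CPM and the adipocyte sum was 23.3, 0.309 and 1.22 CPM. In BAIBA rats 1 to 3, Mme was 2.58, 2.05 and 1.93 CPM and the adipocyte sum was 0.786, 2.05 and 16.6 CPM. The part of these cells in the Mme values was not tested.

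The other genes of the pathway were read by list. No gene of the first 3 lists passed the edgeR test in any comparison. Of 11 genes that process or break down the peptides, 7 or 8 were tested in each comparison. Those that separated 2 groups with an unadjusted p under 0.05 numbered 1 of 7 in HFE against Sham (9.81% of all genes), 2 of 7 in BAIBA against Sham (5.99% of all genes) and 0 in the other comparisons. They were Pcsk7, a relative of furin, at 33.9 CPM in HFE against 29.0 in Sham rats, and, in BAIBA against Sham, Pcsk6 (78.2 against 99.6 CPM) and the insulin-degrading enzyme gene Ide (69.4 against 81.2 CPM). Pcsk6, which activates corin, had a log2 fold change of -0.34 ± 0.10 there (edgeR adjusted p = 0.554).

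Of 18 genes that make, break down or read cyclic GMP, 17 were in the table and 15 or 16 were tested. Those that separated 2 groups with an unadjusted p under 0.05 numbered 4 of 15 in HFE against Sham (9.81% of all genes), 3 of 16 in BAIBA against HFE (8.25%), 2 of 16 in HF against Sham (4.99%), 1 of 16 in HFE against HF (6.7%), 1 of 15 in BAIBA against Sham (5.99%) and 0 of 16 in BAIBA against HF (4.61%). Pde3a, a phosphodiesterase that cyclic GMP inhibits, averaged 61.3 CPM in Sham, 54.7 in HF, 44.9 in HFE and 45.0 in BAIBA rats, and log2 was -0.44 ± 0.13 in HFE against Sham (edgeR adjusted p = 0.298). Vasp, a substrate of cyclic GMP-dependent kinase, had 43.1 CPM in HFE rats, above 33.8 in Sham, 33.4 in HF and 31.3 in BAIBA rats. Rgs2, another substrate, averaged 8.56 CPM in HFE, 7.21 in HF, 5.50 in Sham and 5.33 in BAIBA rats, and HF and HFE rats overlapped. HFE rat 3 had the highest level of both genes, at 52.0 CPM of Vasp and 10.7 of Rgs2. Without it, log2 in HFE against Sham was 0.20 ± 0.09 for Vasp and 0.46 ± 0.17 for Rgs2, in place of 0.36 and 0.65. The others that separated groups at an unadjusted p under 0.05 were Gucy1a2 and Abcc5, higher in HF than in Sham, Ppp1r12a, higher in HFE than in Sham, and Pde1a, higher in BAIBA than in HFE. Their log2 differences were 1.26 ± 0.48 for Gucy1a2, 0.27 ± 0.08 for Abcc5, 0.20 ± 0.07 for Ppp1r12a and 0.58 ± 0.19 for Pde1a. Gucy1a2 was rare, at 0.260 to 0.463 CPM in Sham and 0.617 to 1.26 in HF rats, so its fold rests on few reads.

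All 17 cardiac transcription factor genes were tested. Those that separated 2 groups with an unadjusted p under 0.05 numbered 6 in BAIBA against HFE (8.25% of all genes). In BAIBA against HF they numbered 3 (4.61%), in BAIBA against Sham 3 (5.99%) and in HFE against HF 2 (6.7%). In HFE against Sham they numbered 2 (9.81%) and in HF against Sham 1 (4.99%). In BAIBA against HFE, 5 of the 17 were lower with no overlap, against 1 higher. Over all genes tested there, 8.24% were lower and 7.34% higher with no overlap. Myocd, the gene of myocardin, a partner of SRF, had 30.1, 28.2 and 28.2 CPM in BAIBA rats and 48.7, 54.1 and 55.9 in HFE rats, and the Sham and HF rats, at 33.0 CPM or more, were also above the BAIBA rats. Its log2 fold change was -0.87 ± 0.10, with an edgeR adjusted p of 0.0291, but the fold was under the limit, and without HFE rat 3 the adjusted p was 0.0734 (log2 -0.83 ± 0.11). Srf itself was higher in HFE rats, at 81.0, 79.7 and 142 CPM, than in any other rat, and in BAIBA rats it was 66.9, 42.5 and 54.7. Its log2 fold change in BAIBA against HFE was -0.88 ± 0.27, and -0.56 ± 0.18 without HFE rat 3. Tead1, the gene of a TEAD factor, had 31.8, 10.6 and 36.4 CPM in Sham rats, 20.1, 26.5 and 28.1 in HF rats, 19.2, 21.2 and 20.1 in HFE rats and 13.7, 17.7 and 26.2 in BAIBA rats, and all groups overlapped. Gata4 averaged 93.2 CPM in HFE, 81.7 in HF, 78.1 in Sham and 68.4 in BAIBA rats, so its BAIBA and HFE levels lay on opposite sides of Sham. The log2 fold change of Gata4 in BAIBA against HFE was -0.45 ± 0.11 (edgeR adjusted p = 0.202). Nkx2-5 in the same comparison gave -0.33 ± 0.12 (edgeR adjusted p = 0.440), and Egr1 gave -2.91 ± 1.09 (edgeR adjusted p = 0.510). Egr1 had 17.3, 12.2 and 13.9 CPM in BAIBA rats, and without HFE rat 3 its log2 fold change was -1.01 ± 0.18 (edgeR adjusted p = 0.155).

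The one factor higher in BAIBA than in HFE was Nr2f2, an atrial and venous factor, at 18.4 against 12.5 CPM, and it was also above Sham (12.1 CPM). Hey2, a ventricular factor, had 9.12 CPM in HF rats against 13.1 in Sham and 13.2 in BAIBA rats, with no overlap in either comparison. Tbx20 had 13.5 CPM in HFE against 19.5 in HF rats, and Tbx5 had 19.0 in BAIBA against 23.6 in Sham rats. Without overlap, 1 of the 17 factors was lower and 0 higher in HF than in Sham (11.7% of all genes, either direction). In BAIBA against HF 1 was higher and 3 were lower (11.5%). In HFE against HF 1 was higher and 1 lower (14.3%), and in BAIBA against Sham 1 was higher and 3 were lower (12.7%). The median log2 fold change of this list in BAIBA against HFE was -0.20, and over all genes tested it was 0.00.

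Of the 7 load markers, the test was passed by Myh7 only, which was lower in BAIBA than in Sham (log2 -1.17 ± 0.10, edgeR adjusted p = 0.00864) and than in HFE (log2 -2.08 ± 0.13, edgeR adjusted p = 0.00237). Myh6, the fast myosin heavy chain, gave log2 -0.62 ± 0.12 in HF against Sham (edgeR adjusted p = 0.709) and -0.73 ± 0.13 in HFE against Sham (edgeR adjusted p = 0.142). Atp2a2, the calcium pump of the sarcoplasmic reticulum, gave -0.25 ± 0.07 in HFE against Sham (edgeR adjusted p = 0.296). Acta1, Ankrd1, Xirp2 and Gdf15 overlapped between the groups in every comparison. Load markers that separated 2 groups with an unadjusted p under 0.05 numbered 2 of 7 in HF against Sham (4.99% of all genes) and 3 of 7 in HFE against Sham (9.81%). The number was 1 of 7 in BAIBA against Sham (5.99%) and against HFE (8.25%), 1 of 6 in BAIBA against HF (4.61%) and 0 of 7 in HFE against HF (6.7%).

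The genes most like each member over the 12 rats were sought by Pearson's r among 14213 genes. Nppa was most like Phf24 (r = 0.89), Rbm44 (0.88) and Enah (0.87). Nppb was most like Rftn1 (0.90), Susd6 (0.89) and Sap18 (0.89). Npr3 was most like Lin54 (0.96), Zfp763 (0.86) and RGD1562218 (0.85). Corin was most like Polr1a (0.91), Lrrd1 (0.91) and Agfg1 (0.89), and Mme was most like Flrt2 (0.87), Tfcp2l1 (0.86) and Tbx1 (0.86). For Npr1 they were Spag5 (0.87), Esam (0.86) and Plekho1 (0.85), for Npr2 RF00421 (0.94), Nupl2 (0.88) and RF00003 (0.87), and for Furin Wdtc1 (0.93), Aco1 (0.93) and Ube3c (0.92). No member was among the nearest genes of another. These are the highest of 14213 values over 12 rats in 4 groups and are given as a description.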

How the data were processed

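Left ventricular mRNA of 12 rats was sequenced as paired-end libraries. The submitters' processing notes name HISAT2, StringTie, featureCounts and DESeq2. They list the mouse build mm9, although the gene IDs are those of rat, and the rat genome build is not given in the sources used here. The authors deposited read counts per gene and FPKM values, which divide the counts by gene length and library total. Whether counting used strand is not stated, so Npr1, Corin, Furin and Mme, which overlap other RefSeq genes, are less certain. Counts were tested with edgeR 4.0.16 (TMM, filterByExpr, quasi-likelihood, only the 2 groups compared) in R 4.3.3. A gene was called where its p after Benjamini-Hochberg adjustment was under 0.05 and its fold change at least 2 in either direction (1 on the log2 scale). Alternatives used DESeq2 1.42.0 and limma 3.58.1. The script was tested on simulated data. Relations used log2(CPM + 0.1) less the group mean, with 1296 permutations within groups. RefSeq (GRCr8) listed all 9 members, and its promoter table held 7.

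The members and gene lists were chosen with earlier results of these data known. From the lists, genes were named that were called or that separated 2 groups with an unadjusted p under 0.05, and, after its values were seen, Tead1, Fos and Jun. Prkg1 was not analysed here. Samples of 1 group differed beyond counting error (chi-square per degree of freedom 11.8 to 33.7). Same-numbered rats deviated together only in BAIBA against HFE (r = 0.19, 0.27 and 0.14), where the replicate block gave 32 called genes in place of 12 and 0 members.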

Additional observations from a re-analysis of the deposited data

How the results depend on the processing

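With 3 rats a group, and 12 to 46 reads of Mme and 0 to 6 of Nppc, depth and spread limited what could be called. In edgeR the numbers of members called were 0 in all comparisons. DESeq2 called 2 members in HFE against Sham, 1 in BAIBA against Sham, 1 in BAIBA against HFE and 4 over all groups. In BAIBA against Sham the 1 member, Npr3, was also called with library-size scaling only, with no filter beyond 1 count and without BAIBA rat 2, so leaving out 1 rat gave 0 to 1. Over all genes edgeR called 0 in HF against Sham, HFE against HF, BAIBA against HF, HFE against Sham and all groups together, 6 in BAIBA against Sham and 12 in BAIBA against HFE. DESeq2 called 24, 22, 31, 72, 333, 78 and 171 in that order. With no filter beyond 1 count the numbers were 2 in HFE against HF, 2 in BAIBA against HF, 25 in HFE against Sham, 30 in BAIBA against Sham, 30 in BAIBA against HFE and 2 over all groups. With all 12 rats in 1 fit they were 1 in BAIBA against HF, 0 in BAIBA against Sham and 3 in BAIBA against HFE. Library-size scaling gave 7 in BAIBA against HFE and 4 over all groups. limma on log2(FPKM + 1) gave 2, and on log2(FPKM + 0.1) 3, in BAIBA against HFE, and the latter gave 5 over all groups. The replicate block gave 1 in HFE against Sham, 32 in BAIBA against HFE and 5 over all groups, and changed no call of a member. Rats with the same number deviated together in BAIBA against HFE only.

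Leaving out 1 rat gave 0 to 4 genes in HF against Sham (4 without HF rat 1), 0 to 4 in BAIBA against HF (4 without HF rat 1), 0 to 4 in HFE against Sham (4 without HFE rat 3), 4 to 16 in BAIBA against Sham (16 without BAIBA rat 2), 3 to 20 in BAIBA against HFE (20 without BAIBA rat 1, 3 without HFE rat 1) and 0 to 10 over all groups (10 without HF rat 1). Directions that turned when 1 rat was left out were those of Nppa in HFE against Sham (log2 -1.32 to 0.43) and BAIBA against Sham (-3.98 to 0.069), Nppb in HFE against HF (-0.22 to 0.32) and Npr3 in BAIBA against HFE (-0.16 to 0.54). The other named members kept their direction under every alternative run. Of the relations, Npr3 with Postn, r = 0.12, became -0.014 without the 2 farthest rats, and Mme with Postn, r = -0.10, became 0.046 on log2(FPKM + 0.1). For the members with low counts, Mme in HF against Sham ranged from 0.32 on log2(FPKM + 1) to 1.38.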

Other observations

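Other genes of the failing ventricle are given here as values. Hcn4, a pacemaker channel gene that failing ventricular muscle can express, had 64.6, 32.9 and 35.4 CPM in Sham rats and 9.26, 90.4 and 46.9 in HF rats. It had 138, 79.4 and 50.8 in HFE rats and 7.64, 17.2 and 3.13 in BAIBA rats. All 3 BAIBA rats were below all Sham and HFE rats, and HF rats overlapped every group. Hcn4 was 1 of 4 nodal and conduction markers, of which 3 were tested. In BAIBA against Sham and against HFE, 1 marker was higher and 1, Hcn4, lower without overlap (12.7% and 15.6% of all genes, either direction). The higher was Cntn2, at 4.55, 4.04 and 4.27 CPM in BAIBA, 2.41 to 3.59 in Sham and 1.94 to 2.27 in HFE rats. Nppb with Postn, a gene of activated fibroblasts, gave r = 0.42 over 12 rats as deviations from group means (exact permutation within groups, p = 0.368, adjusted 0.736), and r was 0.11 without the 2 farthest rats. Nppa with Myh7 gave r = 0.01 (exact permutation p = 0.977, adjusted 0.977).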
